A study of Mus musculus with 2 samples.

Results

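The interferon-induced transmembrane (IFITM) genes were examined in mouse peritoneal macrophages in which HDAC9, a histone deacetylase of class IIa, was targeted with an siRNA. The members were Ifitm1, Ifitm2, Ifitm3, Ifitm6 and Ifitm10, 5 genes of 18193 named on the arrays. They had been chosen by family name with their signals and their difference between the arrays already known, so every level and difference of a member below is a description without a test. Each member was read by 1 probe set, 5 of 45037, and none of the 5 probe sets has a name ending in _s_at, _x_at or _a_at, the endings that flag probes shared between transcripts. The members are close paralogues, and how well each probe set separates them was not checked here.

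The study had 2 Affymetrix arrays, 1 per group. Both groups were primary peritoneal macrophages of male C57BL/6 mice, harvested for total RNA 48 h after transfection, with a control siRNA in one group and the HDAC9 siRNA in the other. The sources used here do not give the age or number of the mice, any pooling or the siRNA sequences. With 1 array per group no difference could be set against a spread between cultures, and it is the number of arrays that limits the precision. A signal was taken as above background when its log2 value exceeded 6.34, the 95th percentile of 80 probe sets for odorant and pheromone receptors of the Olfr and Vmn families, which serve sensory neurons, and lower signals were raised to that floor before a ratio was taken. A ratio with 1 array at the floor is a bound. All ratios are log2 values of HDAC9 siRNA over control siRNA.

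IFITM proteins are small membrane proteins that share the CD225 domain. Those encoded by Ifitm1, Ifitm2 and Ifitm3 hinder the fusion of enveloped viruses with cell membranes, IFITM1 mainly at the cell surface and IFITM2 and IFITM3 mainly in endosomes. The genes are switched on by interferon through promoter elements bound by STAT and IRF factors, and macrophages also carry IFITM3 without infection. Ifitm6 is a less studied mouse paralogue, and Ifitm10 is a distant relative that is not known as an interferon target.

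The siRNA target was measured first. For Hdac9 the log2 signal was 6.88 with control siRNA and 5.69 with HDAC9 siRNA. The second value is under the floor, which makes the gene at least 1.46-fold lower. This bound, a ratio of -0.54, lay just inside the 5th to 95th percentile range (-0.55 to 0.68) of 500 genes of similar brightness. Of those 500, 26 had a ratio as low or lower, so the bound alone does not set Hdac9 apart from them. Hdac9 had 2 probe sets, and the values shown are from the brighter. A stricter floor, the 99th percentile of those receptors, left Hdac9 under background on each array and without a ratio. With a lower floor, the 75th percentile, its ratio was -1.19, and without a floor it was -1.18. The Hdac9 value thus depends on the floor, and genes of similar brightness were not compared at those settings.

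The 4 members that lie together on chromosome 7 did not share a direction on these arrays. Ifitm6, the neighbour of Ifitm3, had a log2 signal of 10.4 with control siRNA and 9.33 with HDAC9 siRNA (probe set 1440865_at). Both signals were above background, and the ratio of -1.12 made it 2.17-fold lower with HDAC9 siRNA, the only member past 2-fold. Ifitm1, the cell-surface restriction factor, went the other way, with log2 signals of 7.65 and 8.35 (1424254_at), a ratio of 0.69 or 1.62-fold higher.

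The endosomal factors differed little between the arrays. Ifitm3 had log2 signals of 14.5 on both arrays (1423754_at), and its ratio was 0.03. Ifitm2 had 12.9 on both (1417460_at), and its ratio was -0.05. Both ratios lay inside the 0.29 log2 scatter of probe sets that read 1 gene, which was estimated from the ratios of the 2 brightest probe sets of 5671 genes and leaves out differences between cultures. The sign of the Ifitm2 ratio turned with the scaling, to 0.0040 after centring the arrays on their medians and 0.0091 after loess.

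Ifitm10 was at the edge of detection. Its log2 signal was 6.18, below background, with control siRNA and 6.56, above it, with HDAC9 siRNA (1455239_at), so that it was at least 1.16-fold higher. With the floor at the 99th percentile it was below background on both arrays. Signals of different probe sets depend on their probes, so these levels do not order the genes by transcript amount.

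**Figure D1:**
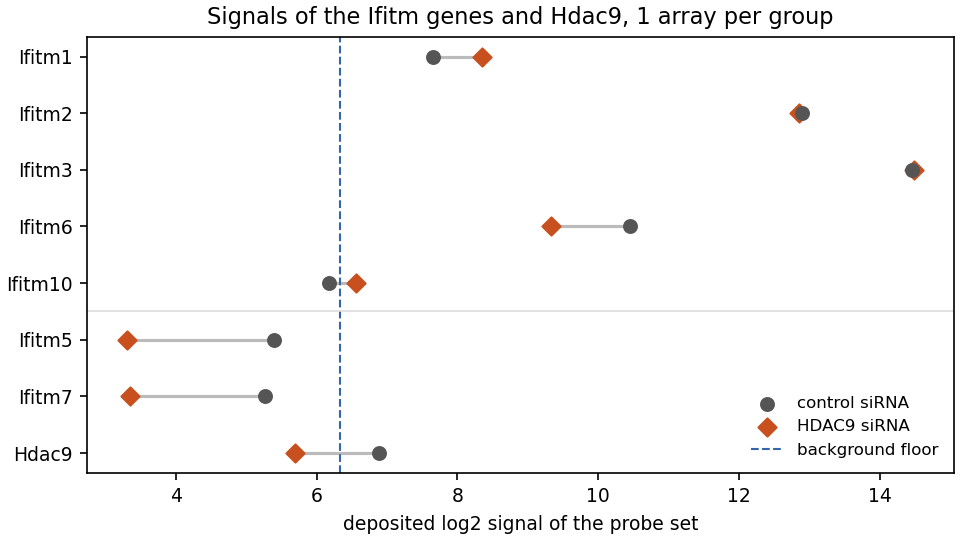
Deposited log2 signal (x axis) of the 5 members, of Ifitm5 and Ifitm7 and of the siRNA target Hdac9 on the control siRNA array (circles) and the HDAC9 siRNA array (diamonds), 1 array each, with the background floor at 6.34 as a dashed line. Ifitm6 moved from 10.4 to 9.33 and Ifitm1 from 7.65 to 8.35, while the symbols of Ifitm2 and Ifitm3 overlap.

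The ratios spread over 1.81 log2 units from Ifitm6 to Ifitm1. The gap between the chromosomal neighbours Ifitm3 and Ifitm6 was 1.15. Of the 5 members above background on at least 1 array, 1 was at least 2-fold lower and 0 were at least 2-fold higher; over all 12090 such genes the shares were 0.372% and 1.44%. At 1.5-fold, 1 member was higher (Ifitm1) and 1 lower (Ifitm6), beside 7.81% and 2.79% of all genes. The median of the 5 ratios was 0.03, as was the median of all genes. Across all genes the split of 174 higher to 45 lower at 2-fold became 114 to 70 after loess, 123 to 51 after quantile normalization and 215 to 36 after centring on the median.

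**Figure D2:**
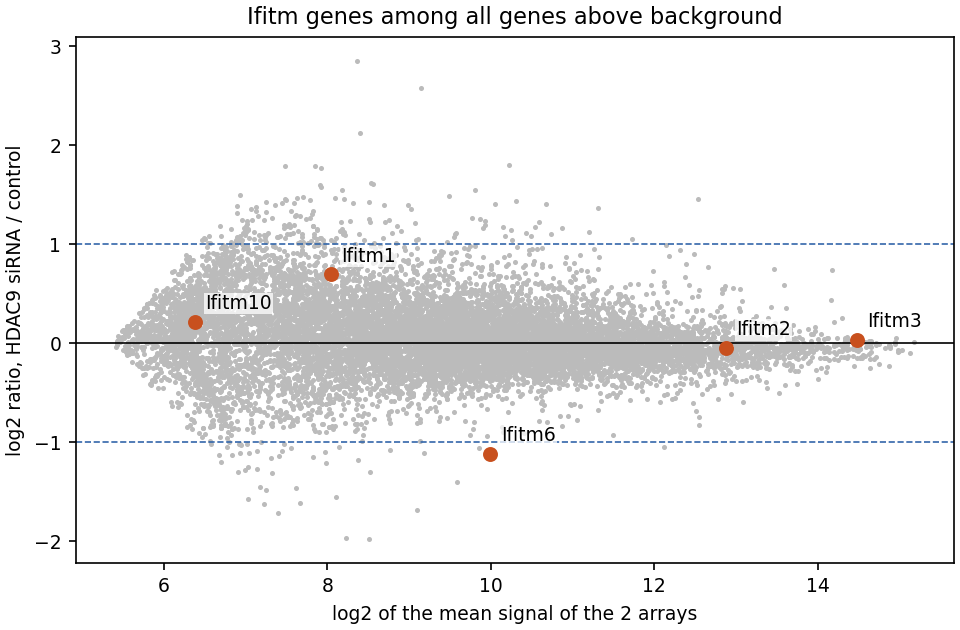
Log2 ratio of HDAC9 siRNA over control (y axis) against the log2 of the mean signal (x axis) for the 12090 genes above background on at least 1 array (grey), with the 5 members in orange and 2-fold as dashed lines. Ifitm6 at -1.12 lies below the lower 2-fold line, Ifitm1 at 0.69 below the upper one, and Ifitm2 and Ifitm3 near 0.

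Differences between the arrays were wider among dim genes, so each member was set beside the 500 genes nearest to it in mean signal, as a description of these 2 arrays. For Ifitm6 the 5th and 95th percentiles of these genes were -0.36 and 0.53, and 0 of the 500 had a ratio as low. For Ifitm1 they were -0.60 and 0.85, and 37 of the 500 had a ratio as high or higher. Ifitm1 thus lay within the spread of genes of its signal and Ifitm6 outside it. Ifitm2, at percentiles of -0.33 and 0.27, and Ifitm3, at -0.26 and 0.18, also lay within theirs.

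**Figure D3:**
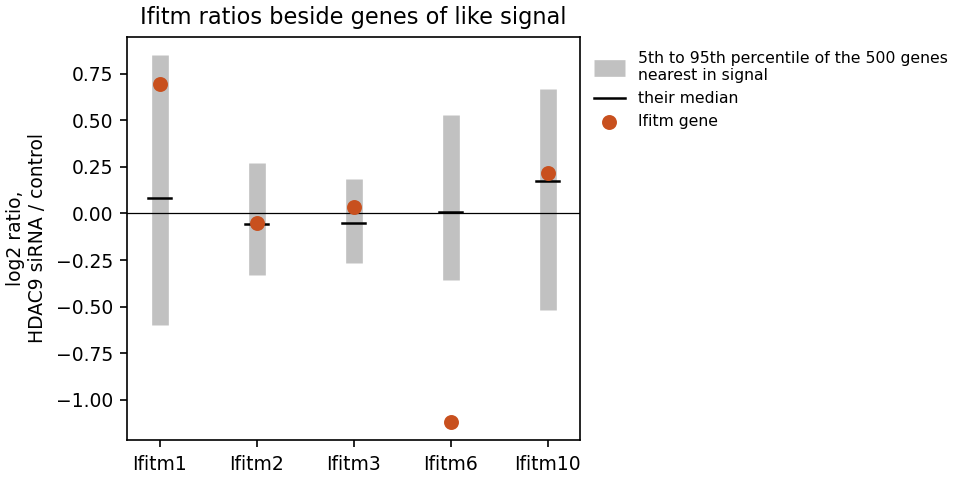
Log2 ratio of each member (orange points, y axis) beside the 5th to 95th percentile range (grey bars) and median (black lines) of the 500 genes nearest to it in mean signal. Ifitm6 is outside its bar, and the other 4 members are inside theirs.

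Among members measured on both arrays, likeness to other genes was taken as the smallest Euclidean distance over the log2 signals of the 2 arrays, which amounts to a like level and a like ratio in 2 samples. The genes nearest to Ifitm6 were F13a1, the A chain of coagulation factor XIII (distance 0.13, ratio -0.94), Kctd12b (0.19, ratio -1.06) and Phtf1 (0.30, ratio -0.87). Those nearest to Ifitm1 were Zswim4, the calcium channel gene Orai2 and Tenm3, at distances of 0.0083 to 0.053. Nearest to Ifitm3 were H2-K1, a class I MHC heavy chain (distance 0.0019), and the ribosomal protein genes Rps24 and Rps3a1. Vps4b, Fbxw11 and Lrpap1 were nearest to Ifitm2. Ifitm6 was farther from its nearest gene than the other 3 were from theirs.

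Of the genes beside the Ifitm cluster, 1 was above background. In the RefSeq gene order of chromosome 7, Ifitm5, Ifitm2, Ifitm1, Ifitm3 and Ifitm6 follow one another, with a pseudogene and a long noncoding RNA gene between Ifitm1 and Ifitm3 that were not analysed here. Of the 3 genes on the Ifitm5 side, Pgghg, a glucosidase that acts on collagen-type sugars, had log2 signals of 8.38 and 8.75 (ratio 0.37), the inflammasome sensor gene Nlrp6 was below background on both arrays, and BC024386 was not analysed here. On the Ifitm6 side, B4galnt4 and Pkp3, a gene of cell junctions, were below background on both arrays, and Gm39114 was not analysed here. Pgghg was short of 2-fold. Ifitm5, the family member of bone, was below background on both arrays (5.40 and 3.30), as was Ifitm7 on chromosome 16 (5.27 and 3.34).

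The promoters of the 4 clustered members are shown so that the windows with an interferon element can be set beside those without. Each sequence runs 5′ to 3′ in the direction of the gene, from 250 bases before to 50 after the transcript start, as RefSeq gives it on GRCm38.p6. Capitals mark 2 motifs searched on both strands: GAAANNGAA, a core of the interferon-stimulated response element (ISRE) bound by IRF factors, and TTCNNNGAA, the gamma-activated site (GAS) bound by STAT factors, which reads the same on both strands. The windows lie at chr7:140967826-140968125 on the plus strand for Ifitm1 and on the minus strand at chr7:140955912-140956211 for Ifitm2, chr7:141010695-141010994 for Ifitm3 and chr7:141016843-141017142 for Ifitm6.
Ifitm1: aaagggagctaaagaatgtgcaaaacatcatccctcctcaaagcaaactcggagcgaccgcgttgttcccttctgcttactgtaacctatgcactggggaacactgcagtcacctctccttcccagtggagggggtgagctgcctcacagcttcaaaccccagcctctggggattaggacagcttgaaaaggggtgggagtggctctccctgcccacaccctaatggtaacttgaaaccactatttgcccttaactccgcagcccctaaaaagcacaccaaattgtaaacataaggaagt
Ifitm2: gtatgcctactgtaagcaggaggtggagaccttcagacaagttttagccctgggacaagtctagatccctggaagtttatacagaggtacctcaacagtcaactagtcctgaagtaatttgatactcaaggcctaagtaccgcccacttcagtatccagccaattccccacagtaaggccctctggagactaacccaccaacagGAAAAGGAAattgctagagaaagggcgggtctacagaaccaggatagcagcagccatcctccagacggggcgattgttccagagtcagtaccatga
Ifitm3: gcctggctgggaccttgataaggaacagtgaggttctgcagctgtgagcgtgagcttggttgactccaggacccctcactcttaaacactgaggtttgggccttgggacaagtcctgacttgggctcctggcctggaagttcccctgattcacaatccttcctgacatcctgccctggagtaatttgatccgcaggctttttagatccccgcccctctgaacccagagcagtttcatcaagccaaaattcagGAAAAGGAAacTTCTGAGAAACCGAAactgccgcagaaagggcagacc
Ifitm6: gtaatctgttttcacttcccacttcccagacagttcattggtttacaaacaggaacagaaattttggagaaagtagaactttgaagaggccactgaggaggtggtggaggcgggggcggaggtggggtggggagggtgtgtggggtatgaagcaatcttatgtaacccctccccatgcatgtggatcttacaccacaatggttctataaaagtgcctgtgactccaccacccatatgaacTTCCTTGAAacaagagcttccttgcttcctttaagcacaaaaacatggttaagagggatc

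The Ifitm3 window held the ISRE core at 2 places, first bases 253 and 270 of the window, just after the transcript start. A GAS match at base 264 overlaps the second of them, and the capitals run together there. Over all 32851 promoter windows of this length, 8.56% held the ISRE core, 0.624% held it at 2 or more places, and 0.0883% held it at 2 or more places together with a GAS match. The Ifitm2 window held 1 ISRE core, at position -46 from the start. It lies within 13 bases, caggaaaaggaaa, that the Ifitm2 and Ifitm3 windows share and that were the longest run common to any pair of the 4 windows; the other pairs shared at most 9 bases in a row.

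The Ifitm6 window held no ISRE core and 1 GAS match, at position -10, against a GAS match in 8.30% of all windows. The Ifitm1 window and the 3 windows of Ifitm10 held neither motif. The ISRE core was thus found for Ifitm2 and Ifitm3, whose ratios were -0.05 and 0.03, and not for Ifitm1 and Ifitm6, whose ratios were 0.69 and -1.12. A match is only a run of letters, and elements outside these windows were not searched.

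In base composition, the first and last of the 3 Ifitm10 windows, which overlap by 232 bases, had a GC content of 73.7% and 71.0%, and the other had 51.3%. The GC content was 47.3% in Ifitm6, 49.7% in Ifitm2, 51.3% in Ifitm1 and 53.0% in Ifitm3; the median of all windows was 52.7%.

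**Figure D4:**
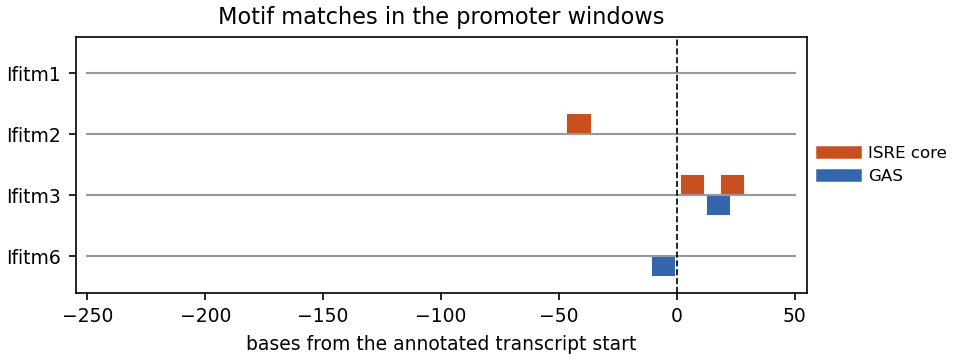
Matches to the ISRE core (orange, above the line) and to GAS (blue, below the line) in the promoter windows of the 4 clustered members, by distance in bases from the annotated transcript start (x axis, dashed line at the start). Ifitm3 has 2 ISRE cores and a GAS match after the start, Ifitm2 has 1 ISRE core before it, Ifitm6 has 1 GAS match and Ifitm1 has none.

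Most other antiviral genes switched on by interferon had ratios above 0 on the same arrays, short of 2-fold in 20 of 25. This list, like those that follow, was chosen with earlier results of these data known, so its counts are a description without a test. Of 27 listed genes 25 were analysed here; 24 had a ratio above 0 and 1 below, 5 passed 2-fold upward and 0 downward, and their median was 0.58. Over all 12090 genes 54.1% had a ratio above 0, 1.44% passed 2-fold upward and 0.372% downward, and the median was 0.03. Ifit1, Ifit3 and Ifit2, whose proteins bind viral RNA or help to do so, were at 1.40, 1.17 and 1.12. The GTPase gene Mx2 was below background on the control array, and its 1.08 is a bound that dropped to 0.49 under the 99th-percentile floor. Of the 5 members, Ifitm1 alone had a ratio above the list median of 0.58, and Ifitm6, at -1.12, was below all 25 genes. Ifitm3 and Ifitm2 were below all but 1 of the 25, the exception being Ch25h, the cholesterol 25-hydroxylase, at -0.14. Ifitm3, at log2 14.5, was brighter than all 25, and differences between the arrays were narrower among bright genes. Of the 27 listed genes 20 had a promoter window, and 12 of these held the ISRE core in at least 1 window. Over all windows the share was 8.56%, counted per window and not per gene. Ifit1 and Ifit3 held the core at 3 places each, and Ifit2 held none. The 20 include Isg15 and Ifi44, which hold the core but were not among the 25 genes with ratios.

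The interferon receptor and signalling genes had a median of 0.09 over the 11 of 12 analysed here, with 9 above 0, beside 54.1% of all genes. Irf7, the factor that amplifies interferon production, was 2.57-fold higher, with log2 signals of 10.5 and 11.8. Stat2 was at 0.57 and Irf9, its partner in the ISRE-binding complex, at 0.23. The interferon gamma receptor chain Ifngr1 had the lowest ratio, -0.21. Irf7 was the 1 gene of this list past 2-fold.

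Enzymes and partners that act on IFITM proteins, known mostly from human IFITM3, had a median of 0.12 over 18 genes, 13 of them above 0, beside the same 54.1% of all genes. Ap2a1, a subunit of the AP-2 adaptor that takes IFITM3 up from the cell surface, was the 1 gene past 2-fold, at 1.22 (log2 signals 7.43 and 8.65), while the other AP-2 subunit genes lay between -0.29 (Ap2s1) and 0.13 (Ap2a2). Osbp, a sterol carrier that shares the anchor protein VAPA with IFITM3, was at 0.61. Zdhhc20, an enzyme that attaches palmitate to IFITM3, was at -0.34. The ubiquitin ligase gene Nedd4 and the kinase gene Fyn were at 0.16 and 0.18, and Vapa was at 0.00. Of 10 further CD225 genes, 8 were analysed here and 7 were below background on both arrays; the exception was Prrt1, at 0.25 by its brighter probe set and 0.73 by the median of both.

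**Figure D5:**
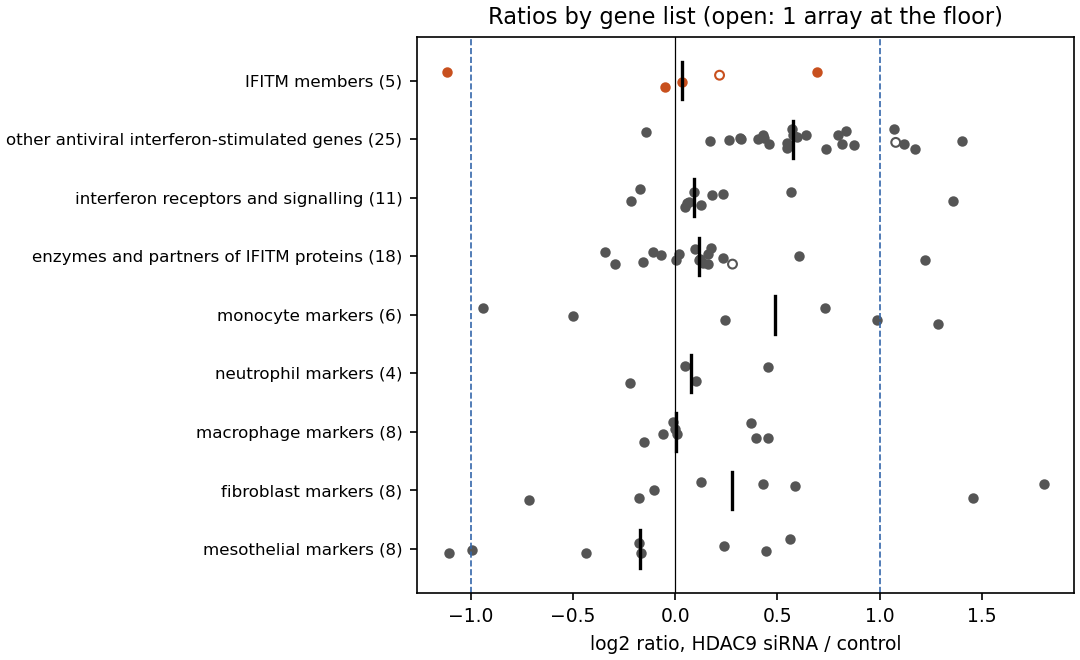
Log2 ratio (x axis) of each gene above background on at least 1 array, by gene list, with the number of genes in parentheses, list medians as black bars, bounds as open circles and 2-fold as dashed lines. The 5 members span -1.12 to 0.69, and 24 of the 25 other interferon-stimulated genes lie above 0.

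IFITM transcripts are made by many cell types, and the cultures held RNA of more than one. Of 10 macrophage markers 9 were analysed here and 8 were above background, Lyz2 at 14.7 on both arrays and Adgre1, which encodes F4/80, at 12.7 on both. The median ratio of the 8 was 0.0053, with 5 above 0 and 3 below, and 0 were past 2-fold. The largest ratios were those of Gata6 at 0.46, Icam2 at 0.40 and Mertk at 0.37, and the lowest was that of Csf1r at -0.15. All 8 fibroblast markers were above background, Dcn at 13.7 and 13.8, with 5 ratios above 0 and 3 below and a median of 0.28. Past 2-fold were Col1a1 at 1.80 and Col3a1 at 1.46, while Thy1 was at -0.72, Pdgfrb at -0.18 and Pdgfra at -0.10; the list had a summed linear signal of 39870 with control siRNA and 53582 with HDAC9 siRNA. All 8 mesothelial markers were also above background, with a median of -0.17, 3 ratios above 0 and 5 below. Msln was at -1.11 (-0.57 under the 99th-percentile floor, as a bound) and Krt7 at -0.99, while Lrrn4 was at 0.56 and Wt1 at 0.44. The summed linear signal of these markers went the other way from their median, 9273 with control siRNA and 10622 with HDAC9 siRNA. Upk3b, the brightest of them at log2 signals of 12.5 and 12.7, weighs most in both sums. Their part in the Ifitm values was not tested. In bulk RNA, fewer cells of a type and less RNA per cell cannot be told apart, and no Ifitm signal can be assigned to one cell type.

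Ifitm6 was also set beside markers of blood monocytes and other leukocytes. The monocyte markers above background lay on both sides of 0: of 6, 4 had a ratio above 0, led by the proteoglycan gene Vcan at 1.28 (0.72 as the median of its detected probe sets) and Ms4a4c at 0.99, and 2 were below 0, F13a1 at -0.94 and the calcium-binding protein gene S100a4 at -0.50. Their median was 0.49, but -0.12 when the 75th percentile set the floor and -0.13 without a floor. Their summed linear signal was 24595 with control siRNA and 32322 with HDAC9 siRNA over the 8 markers analysed here. Without Fn1, the fibronectin gene (log2 signals 13.8 and 14.5, ratio 0.73), the other 7 summed to 10734 and 9254. Fn1 was left out with its values known. The brightest of the other 7 was S100a4, at -0.50, and their lower sum with HDAC9 siRNA rests largely on this gene. The direction of these sums thus depends on which markers are counted. The chemokine receptor gene Ccr2 and Chil3 were below background on both arrays. The 4 neutrophil markers above background ran from -0.22 (S100a8) to 0.45 (Csf3r), with 5 more below background and summed signals of 1652 and 1729. Of 6 T cell markers 2 were above background on at least 1 array, Lat at -0.77 and Cd8a at -0.79 as a bound (-0.21 under the 99th-percentile floor). Cd3d, Cd3e, Cd3g and Cd4 were below background on both. The signals of all 6 summed to 899 and 545, and Lat, at log2 signals of 9.46 and 8.70, made up most of both sums. The Cd8a value came from the brightest of 5 probe sets, which has the ending _x_at, and its other probe sets were below background on both arrays. Of 4 B cell and 4 NK cell markers 1 each was above background, Pax5 at 0.40 as a bound and Prf1 at 0.07. The part of any of these cells in the Ifitm6 difference was not tested.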

How the data were processed

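The members and the gene lists were chosen with earlier results of these data known. The authors deposited log2 signals, 1 value for each probe set and array. The submitters' processing notes name MAS5; the sources used here give neither its version nor its scaling target or detection calls. The linear mean after trimming 2% from each end was 497 on both arrays, so the scaling was kept as deposited. Names came from the platform's 2016 annotation, and gene identifiers linked them to RefSeq on GRCm38.p6: 34945 had 1 symbol, of which 34741 matched, and 0 changed. Gene values leave out the 932 with several symbols and the 9160 without one. Each gene took the probe set that was brightest on average. No test was run with 1 array per group; genes were counted at 2-fold. Named genes are the members, Hdac9, up to 4 genes per list with the largest absolute ratio (all where 5 or fewer were above background), the 3 genes on each side of the cluster and the 3 nearest genes per member; any other gene named was chosen after its values were seen. Promoter windows and their coordinates are RefSeq's; no source used here names the build behind the probe sets. The ratio step was tested on simulated shifts in genes well above the floor. The list, likeness and motif steps were not tested in this way. Python 3.11.15, numpy 2.4.6, pandas 2.3.3 and statsmodels 0.14.6 were used. Alternatives were 3 scalings, 3 floors, 2 probe set rules and thresholds of 1.5-fold and 3-fold.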

Additional observations from a re-analysis of the deposited data

How the results depend on the processing

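No paired analysis was possible because each group had 1 array. All 39 alternative values of the 5 members stayed within the 0.29 scatter of a single probe set, but many of them could not move. Each member had 1 probe set, without a shared ending, so both probe set rules returned the main value. Members above background on both arrays kept their ratio under the other floors and almost kept it without a floor. For them only the scalings were a real check. Ifitm6 ranged from -1.15 to -1.06, past 2-fold in each, and Ifitm1 from 0.61 to 0.75. Ifitm3 ranged from 0.03 to 0.11, Ifitm2 from -0.05 to 0.0091 and Ifitm10 from 0.13 to 0.38. Under the 99th-percentile floor Ifitm10 had no value. Over all genes the counts past 2-fold, 174 upward and 45 downward, became 114 and 70 after loess, 658 and 259 when the 75th percentile set the floor, and 2223 and 1481 without a floor and with a pseudocount of 1. The downward count was 21 when the 99th percentile set it. Past 1.5-fold there were 944 and 337 genes, and past 3-fold 10 and 6. Of 56 alternative list medians 53 stayed within the error that this scatter gives a median. The other 3 were all of the monocyte markers, against 0.49 in the main setting. They were -0.12 with the lower floor, -0.13 without a floor and 0.24 after dropping _s_at, _x_at and _a_at probe sets. The lower floor and no floor bring in Ccr2 and Chil3, whose deposited differences were -0.69 and -1.06. Dropping those endings takes out Ms4a4c, at 0.99, whose probe sets end in _x_at and _s_at. Of 294 alternative values of other named genes, 280 stayed within the scatter and 0 genes past 2-fold changed sign. Here too, other floors and probe set rules could not move bright genes with 1 probe set. Signals near the floor limit what can be said of Ifitm10 and Hdac9.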

Other observations

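Genes with an ISRE core in a promoter window were counted over the whole arrays. The 827 such genes above background had a median ratio of 0.02, with 15 past 2-fold upward and 3 downward, and the 8955 genes whose windows held none had a median of 0.03, with 128 and 30. For GAS matches, 810 genes had a median of 0.05, with 16 upward and 3 downward, and the 8972 without had 0.02, with 127 and 30. These are counts over genes of 2 arrays, with no test.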
